A study of Homo sapiens with 6 samples.

Results

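The sites described are the Argonaute crosslink positions in HK2 cells whose seed annotation names hsa-miR-92a-3p, whatever the kind of match and wherever in the transcriptome it lies. There are 372 of them among 16230 listed sites. The authors' annotation assigns them to 1 seed group of 5 microRNAs, miR-25-3p, miR-92a-3p, miR-92b-3p, miR-363-3p and miR-32-5p, called the miR-25/92 family here. HK2 is an immortalised line derived from the proximal tubule of a human kidney, and its genotype is listed as wild type. PAR-CLIP maps where a protein touches RNA. The RNA is labelled with 4-thiouridine, light joins that base to the protein, and the joined T is read as another base on sequencing.

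The groups compared are 2 control libraries and 2 TGF-beta1 libraries (20 ng/mL, 24 h of exposure), all made from anti-Argonaute precipitates. The protocol serum starved cells for 24 h, gave 100 uM 4-thiouridine over the last 20 h and irradiated them at 365 nm. It describes 1 procedure and does not say what the control cells received in place of TGF-beta1. Another 2 samples are IgG precipitates and were not analysed here, so no IgG background stands beside the values. Whether the replicates were grown as separate cultures is not stated. The p-values below therefore judge a difference only against the spread among these libraries, and that spread may be technical.

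Depth recovered from the values was 1714445 and 1926255 reads for control and 5293207 and 3415699 reads for TGF-beta1. Of these, 36958 to 74969 per library were crosslinked reads at a listed site. Of the genes checked as cell type markers, 0 of 15 proximal tubule markers had an Argonaute site. Of 9 genes listed for simple epithelium 4 had one (KRT18, CDH2, CLDN1 and JUP). The lists were chosen here, and a listed gene such as CDH2 need not be particular to its cell type. None of 6 fibroblast, 4 endothelial or 4 leukocyte markers had one. A site needs both RNA and Argonaute, so a marker without a site is not shown to lack expression, and fewer cells of a type cannot be told apart from less RNA per cell.

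MicroRNAs guide Argonaute to messenger RNAs by pairing of their seed, bases 2 to 8 from the 5′ end, mostly with 3′ untranslated regions (3′ UTRs), and the bound messages are translated less and decay faster. The miR-25/92 microRNAs come from several clusters, among them the oncogenic cluster that also makes miR-17, and a cluster inside an intron of MCM7. They are known for restraining the death factor BIM (BCL2L11) and other brakes on growth. TGF-beta is the main cytokine driving matrix production and loss of epithelial character in kidney tubule cells.

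The mature sequences are shown first because they define what the sites have in common. They are RefSeq entries on GRCh38.p14, written 5′ to 3′ with the seed in capitals:

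miR-92a-3p: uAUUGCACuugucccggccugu
miR-25-3p: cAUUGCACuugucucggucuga
miR-92b-3p: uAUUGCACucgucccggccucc
miR-363-3p: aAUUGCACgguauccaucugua
miR-32-5p: uAUUGCACauuacuaaguugca

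All 5 are 22 bases long and share 1 seed. Counting from the 5′ end, miR-25-3p differs from miR-92a-3p by U1C, C14U, C18U and U22A, and miR-92b-3p by U10C, G21C and U22C. miR-363-3p and miR-32-5p differ from it at 12 and 11 positions, so the family separates outside the seed into the close miR-92a, miR-92b and miR-25 and the distant other two. miR-92a-3p has 2 genes, MIR92A1 at chr13:91351361-91351382 on the plus strand and MIR92A2 at chrX:134169544-134169565 on the minus strand. MIR363 lies beside the latter at chrX:134169382-134169403, also on the minus strand. The others are MIR25 at chr7:100093571-100093592 (minus), MIR92B at chr1:155195237-155195258 (plus) and MIR32 at chr9:109046272-109046293 (minus). A seed match cannot tell these microRNAs apart, and every site below is a site of the seed, not of 1 of them. The authors' deposited table gives an abundance of 17609 (microRNA RPM) for the seed, which ranks 6 of 42 seeds.

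The windows below show how the matches sit at the crosslink. Each holds 14 bases upstream, the crosslinked t as base 15, and 15 bases downstream on the transcribed strand, from the deposited table (hg38), with the bases that pair with the seed in capitals. In ZNF107 the capitals also include the bulged base, which does not pair. The first 5 are the family's most abundant sites, CLDN11 also being the site that passed the test below; BICC1 shows a 6-base match and was chosen with its values known, and ZNF107 a match with 1 base bulged out.

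OIP5-AS1: ttaaaaccgggatatGTGCAATagaaatat
DKK3: aggctgtgggtagatGTGCAATagaaatag
SOX4: tttgccatccatcctGTGCAATatgccgtg
CLDN11: cttgaagtgaaatctGTGCAATaaaataac
FXR1: tttcggttgtttgatGTGCAATatgttttt
BICC1: gcagttggacagaattTGCAATataaggat
ZNF107: gcaaatgtgaataatGTGGCAATactttaa

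In the first 5 windows and in ZNF107 the crosslinked t stands directly before the first paired base, that is, opposite base 9 of the microRNA where the match reaches base 8. In BICC1 the match reaches only base 7 and starts 1 base later.

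Matches to the whole seed, GTGCAAT over bases 2 to 8, made up 207 of the 372 sites (55.6%). Another 80 sites matched bases 2 to 7 (TGCAAT), 79 matched bases 3 to 8 (GTGCAA) and 6 had a bulge (GTGGCAAT). The printed motif was found whole in the deposited window at 205, 76, 77 and 5 of these sites, and at the rest the match ran past the window's edge. The share of whole-seed matches was 28.8% over the 9877 sites of all other seeds, 54.4% for let-7, 50% for miR-17 and 54.2% for miR-30-5p. It ranked 2 of the 42 seed groups. How the authors chose 1 seed for a window that holds several is not given in the sources used here.

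The sites lay mainly in 3′ UTRs, with 200 of 372 (53.8%). That share was 44.9% for all other seeds, 39.2% for let-7, 60.7% for miR-17 and 64.0% for miR-30-5p. Coding sequence held 98 of the family's sites, introns 41, noncoding RNAs 11 and intergenic sequence 11. The rest were 4 on a coding and 3′ UTR boundary class, 3 beyond annotated 3′ UTRs, 2 in 5′ UTRs, 1 antisense and 1 in a pseudogene. Whole-seed matches were 136 of the 200 3′ UTR sites (68.0%), 39 of the 98 coding sites (39.8%) and 18 of the 41 intronic sites (43.9%). For the 3′ UTR sites of all other seeds the same share was 35.5%. It was 44.9% for let-7, 56.6% for miR-17 and 62.2% for miR-30-5p.

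**Figure D1:**
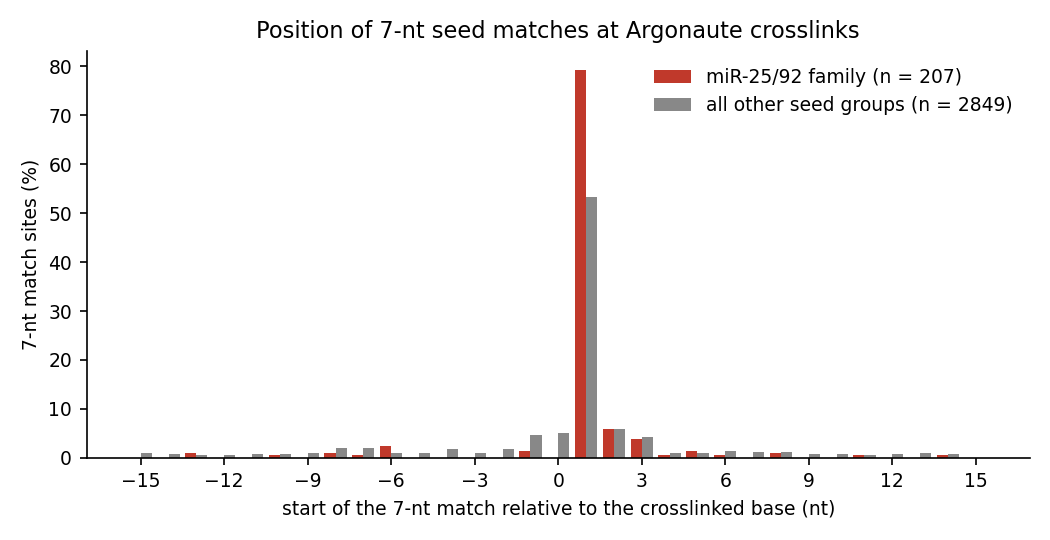
Percent of 7-nt matches (y axis) by the distance in nucleotides from the crosslinked base to the first base of the match (x axis), for the 207 matches of the family and the 2849 of all other seeds. At a distance of 1 stand 79.2% of the family's matches and 53.3% of the others. The crosslinked base is a T, so the letters of a match limit the distances it can have.

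The crosslink fell at 1 spot of the match. In 164 of 207 whole-seed sites (79.2%) the match began on the base directly after the crosslinked T, and in 184 (88.9%) it began 1 to 3 bases after it. The plot of match positions shows the peak. The share at a distance of 1 was 85.2% for let-7, 81.1% for miR-17, 50% for miR-30-5p and 53.3% for all other seeds. The crosslinked base is a T, so the letters of a match limit the distances it can have. GTGCAAT begins with G, and the family had 0 matches at a distance of 0, where 28.7% of miR-30-5p's stood. How far the letters set the differences between these shares was not tested. An A opposite the first base of the microRNA, a base that Argonaute itself can hold, followed 103 of 205 whole-seed matches (50.2%), against 50.5% for let-7, 41.0% for miR-17 and 57.7% for miR-30-5p. The 3′ UTR windows with a whole-seed match were 63.0% A or T, the same as for all other seeds.

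Each of the 372 sites had its own match. No pair of them lay within 31 nt. The closest pair, in REV3L, was 37 nt apart. Only 3 windows, in DNAJB9, ABCA1 and G3BP2, held a further stretch of 6 bases that pairs with the seed. The sites named 329 genes; 304 had 1, 19 had 2 and 6 had 3 or more. Those 6 were NEAT1 with 4, and HIPK3, TRIO, NONO, PKM and E2F3 with 3 each. 11 sites had no gene name, and 2 of the names join overlapping genes.

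Bases of the microRNA beyond the seed can pair too, most often bases 13 to 16. The 16 bases ending at the crosslink were searched, on the transcribed strand only, for the letters that pair with these bases, at the 164 sites where a whole-seed match followed the crosslink directly. CGGG, which pairs with miR-92a-3p and miR-92b-3p, was at 6 of the 164 (3.66%) and at 7 of 1519 such sites of all other seeds (0.461%). CGAG, for miR-25-3p, was at 1.22% against 1.32%, TGGA, for miR-363-3p, at 9.15% against 9.68%, and TTAG, for miR-32-5p, at 3.05% against 4.74%. Any of these stretches, CGGG included, was at 27 of the 164 (16.5%) and at 242 of the 1519 (15.9%). These are counts of letters, with no test, and the windows need not pair there. Of the CGGG sites, 5 are printed with both stretches in capitals, because they hold letters that differ between members of the family:

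OIP5-AS1: ttaaaacCGGGatatGTGCAATagaaatat
DNAJB12: gaCGGGctgagccatGTGCAATaagaacat
ATP2C1: ttaggCGGGctgtgtGTGCAATgatgctgt
AC016831.1: ctgctgggaCGGGctGTGCAATtaaacagt
RBL2: cttgattgttCGGGtGTGCAATgtctgagt

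The first of them is the family's most abundant site. The distance between the CGGG and the seed match differs from window to window, from 1 base in RBL2, where only the crosslinked t separates them, to a longer gap in DNAJB12. Over all 4 libraries these 5 sites held 357, 52, 7, 7 and 4 crosslinked reads in the order printed.

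Read level differed with the kind of match and the region. Summed over the 4 libraries, the median was 11.5 crosslinked reads a site (quartiles 6 and 24.25). It was 17 for whole-seed matches, 7 for each kind of 6-base match and 13 for the 6 bulged sites. In 3′ UTRs the 136 whole-seed sites had a median of 22 reads and the 62 sites with a 6-base match 9.5. Coding sites had a median of 8 and intronic sites 6. Whole-seed matches that began directly after the crosslink had a median of 20.5, and the 43 at any other distance 8. Among 3′ UTR whole-seed sites the median was 28 where an A stood opposite base 1 (77 sites) and 19 where another base did (59 sites). Over the 3′ UTR whole-seed sites of the whole table those medians were 17 and 14. They were 21 and 23 for let-7, 18 and 18.5 for miR-17, and 14 and 13.5 for miR-30-5p. Sites are not replicates, so these are descriptions with no test.

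**Figure D2:**
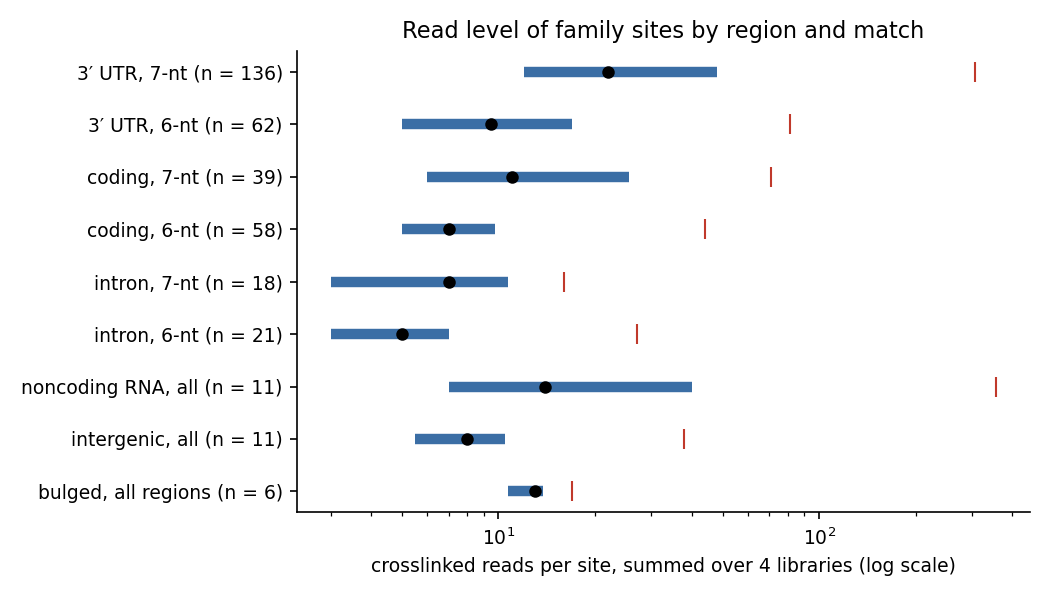
Crosslinked reads per family site summed over 4 libraries (x axis, log scale) by region and match (y axis). Black points are medians, blue bars span the quartiles and red ticks mark the highest site; the 3′ UTR sites with a 7-nt match have a median of 22 reads and those with a 6-nt match 9.5. Classes of 4 sites or fewer are not drawn.

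The list is uneven in depth. Of the 372 sites, 273 and 313 had a crosslinked read in control replicates 1 and 2, and 355 and 341 in TGF-beta1 replicates 1 and 2. In all 4 libraries it was found at 210 sites (56.5%), against 44.9% for other seeds. That share was 70.3% for let-7, 58.5% for miR-17 and 53.1% for miR-30-5p. Of the family's sites, 22 had no read in either control library and 1 had none in either TGF-beta1 library. At the 210 sites, crosslinked reads were 46.8% ± 1.72 (SD, n = 2) of covering reads in control and 39.9% ± 1.07 in TGF-beta1 libraries. At whole-seed sites the family's shares were 51.2% and 46.3%, let-7's 53.2% and 46.7%, miR-17's 46.3% and 43.5%, and miR-30-5p's 30.7% and 25.5%.

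Levels per library are given as RPM after scaling by TMM, a factor per library that evens out composition, and are called scaled RPM. The top of the list was the noncoding RNA OIP5-AS1, a cytoplasmic long noncoding RNA that also holds a well-known site for miR-7. Its site at chr15:41300504-41300510 had 15.5 and 34.4 scaled RPM in control and 31.7 and 36.0 in TGF-beta1 libraries. The control libraries stand far apart there, and the groups overlap. That site held 81.3% of all crosslinked reads at OIP5-AS1.

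DKK3, a secreted glycoprotein of the Dickkopf family, had its only Argonaute site in the 3′ UTR at chr11:11964433-11964439. Its level was 36.6 and 32.3 scaled RPM in control and 21.9 and 21.7 in TGF-beta1 libraries. The groups do not overlap, and the difference did not pass the test (log2 difference -0.64, SE 0.25, limma adjusted p = 0.138). SOX4, a transcription factor of the HMG-box class, had 21.1 and 22.4 against 27.7 and 26 scaled RPM at chr6:21598431-21598437, with a log2 difference of 0.29 (limma adjusted p = 0.613) that turned to -0.35 without TMM scaling.

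FXR1 encodes an RNA-binding protein related to the fragile X protein. Its 3′ UTR site at chr3:180977106-180977112 had 22.7 and 16.5 scaled RPM in control and 20.3 and 16 in TGF-beta1 libraries, and the groups overlap. KLF6, a zinc finger transcription factor, had 15.5 and 16.9 against 12.9 and 15.1 scaled RPM. MIA3, which helps load collagen for export from the endoplasmic reticulum, had 14.4 and 11.4 against 12 and 12.6. Both TGF-beta1 values of KLF6 lie below its controls and those of MIA3 overlap them; neither passed (limma adjusted p = 0.782 and 0.946).

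Of the other 9 sites among the leading 15, CLDN11 and TGIF1 are taken up below. LPP, a focal adhesion protein, and the death factor BCL2L11 each had 1 control library well above the rest, 17.2 scaled RPM for LPP and 16.2 for BCL2L11. SERTAD2, a transcriptional coregulator, spread more within the groups than between them, with 15.5 and 6.88 in control and 6.77 and 14 in TGF-beta1 libraries. DUSP5, a nuclear phosphatase of ERK, KCTD2, PHTF2 and the ETS factor ELK4 had log2 differences from -0.54 to -0.37, none of which passed (lowest limma adjusted p = 0.475). All of the leading 15 are whole-seed matches that begin directly after the crosslink, and 14 are in 3′ UTRs. The leading 10 held 25.7% ± 0.0591 (SD, n = 2) of the family's crosslinked reads in control and 21.6% ± 1.33 in TGF-beta1 libraries (exact permutation p = 0.333, the smallest that 2 against 2 allows).

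**Figure D3:**
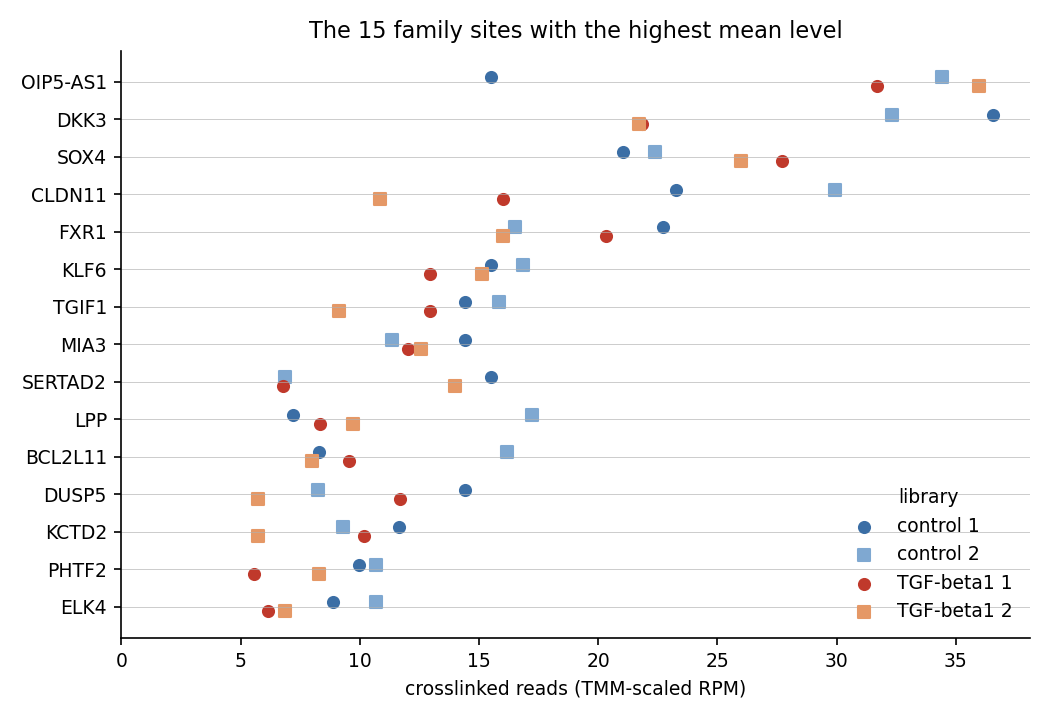
Scaled RPM (x axis) at the 15 family sites with the highest mean (y axis, by gene), with 1 point per library. DKK3, CLDN11, KLF6, TGIF1, PHTF2 and ELK4 have both TGF-beta1 libraries below both control libraries, and SOX4 has both above (without TMM scaling its log2 difference was -0.35). The groups also did not overlap, either way, at 48.3% of all 1059 tested sites.

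In coding sequence the leading sites were those of KIRREL1, an adhesion protein of the kidney filter, ATP2A2, the calcium pump of the endoplasmic reticulum, and SDHB, the iron-sulfur subunit of succinate dehydrogenase. KIRREL1 had 9.97 and 7.57 scaled RPM in control and 4.62 and 2.86 in TGF-beta1 libraries, without overlap (log2 difference -1.06, SE 0.45, limma adjusted p = 0.172). ATP2A2 had 3.88 and 7.57 against 4.62 and 7.71, and SDHB 5.54 and 4.13 against 6.77 and 7.14 scaled RPM. Neither passed. NORAD, a long noncoding RNA that binds Pumilio proteins, had 7.20 and 7.91 against 8.31 and 5.43 at its site, which was 16.4% of its reads.

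Lower regions held little. The leading intronic site, in ZNF718, had 27 reads in all, and those of TRIO and ATP5B had 16 each. Beyond annotated 3′ UTRs the KLHL11 site had 57 reads and the PVR site 9. An antisense transcript, PP7080, had 46, the leading intergenic sites 38 and 17, S100A2 and the joined name of EEF1G 13 and 10, the 5′ UTRs of NONO and AMIGO2 5 each, and the EIF4A2P1 pseudogene 5. Reads from EEF1G, its pseudogene copies and the gene it overlaps cannot be told apart by name, nor those of EIF4A2P1 from its parent gene.

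Genes with 3 or more sites had at most 37 reads at any of them. Genes with 2 sites include SOX4 and BCL2L11, whose stronger sites are among the leading 15. HIPK3, a homeodomain-interacting kinase, had 3 whole-seed 3′ UTR sites spread over its 3′ UTR, with 13, 7 and 18 reads, together 82.6% of its crosslinked reads. TRIO had 1 site in the 3′ UTR (37 reads) and 2 in introns (16 and 11). E2F3, a cell cycle transcription factor, had 28 and 16 reads in the 3′ UTR and 3 in an intron. NEAT1, the scaffold RNA of paraspeckles, had 15, 6, 5 and 4, all of them at 6-base matches and each 1.04% of its reads or less. PKM and NONO had 16 reads or fewer at each of their sites, and PKM's 3 were all coding.

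Other seeds often shared the window. 198 of the 372 sites listed no other seed. Another seed was listed adjacent to or near the crosslink at 84 sites, and 36 of these named miR-23a and miR-23b. At 120 sites another seed was listed elsewhere in the window, and some sites had both. miR-27 and miR-128 were near 13 sites each, miR-181 near 12 and miR-103 near 8. Named sites among the 84 include those of KLF6, TGIF1, MIA3, KCTD2, BMPR2 and REV3L, and the stronger site of BCL2L11. A window can be counted for 1 seed only in the annotation, so a read at a site that lists another seed need not belong to the miR-25/92 family.

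Few of the family's sites passed the test of TGF-beta1 against control. Of the 60 sites deep enough to test, 1 fell, in CLDN11, and 0 rose by limma. Over all 1059 sites tested, 76 passed, or 7.18% (39 higher, 37 lower, 3.68% and 3.49%). At an unadjusted p under 0.05 stood 4 family sites higher and 5 lower, 9 of 60, against 19.3% of all tested sites. The median log2 difference was -0.08 over the family's sites and 0.05 over all, and without TMM scaling the median of all sites moved to -0.51. Of let-7's 85 tested sites 6 passed, of miR-17's 61 tested 6, and of miR-30-5p's 46 tested 6; differences between these counts were not tested.

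The other 312 family sites had 2 to 48 reads in all and were not tested. The tested 60 had 29 to 357 reads and held 58.7% of the family's reads; 53 were whole-seed matches and 46 were in 3′ UTRs. Both control libraries reached the filter's depth at 42 of the 60, and at the rest the filter was passed with at least 1 TGF-beta1 library. Within a group the pair of libraries differed by a median of 1.46-fold in control and 1.41-fold in TGF-beta1, and by over 2-fold at 20 and 9 of the 60. The groups did not overlap at 30 of 60 sites, 15 in each direction, against 48.3% of all tested sites.

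The count of called family sites moved with the fit, and so did that of all sites. CLDN11 and BMPR2 were both called by edgeR (7.74% of all sites called) and with a pseudocount of 2 (8.12%). With the replicate number as a block MAP1B and FAM129A joined them, 4 in all (11% of all sites), and on coverage 5 family sites passed (5.5%). With 1 library left out, 2 passed without control replicate 1 (9.63%) and 6 without control replicate 2 (11%), but 0 by limma without TGF-beta1 replicate 1 (0.189%) or 2 (0.472%). None passed without TMM scaling (2.64%), with TMM computed before the filter (3.97%), by DESeq2 (3.97%), without a variance trend (2.36%) or with a pseudocount of 0.5 (6.33%).

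CLDN11 encodes claudin 11, a protein of tight junctions. Its family site, at chr3:170434070-170434076 in the 3′ UTR, had 23.3 and 29.9 scaled RPM in control and 16 and 10.9 in TGF-beta1 libraries. Both treated libraries lie below both controls. The means were 26.6 ± 4.72 and 13.4 ± 3.65 (SD, n = 2), 1.98-fold lower with TGF-beta1 (log2 difference -0.95, SE 0.29, limma adjusted p = 0.0495). That p lies just under the threshold of 0.05. It was above the threshold in 9 of 14 alternatives; the limma adjusted p was 0.144 without control replicate 2, and 0.323 and 0.434 when TGF-beta1 replicate 1 or 2 was left out. The site held 59.2%, 69.0%, 70.3% and 67.9% of the reads at CLDN11's 5 Argonaute sites, in the order of control and then TGF-beta1 replicates, and the gene's summed level fell as well (below).

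BMPR2, a receptor for bone morphogenetic proteins, had the family's second largest positive difference, at chr2:202560454-202560460 in its 3′ UTR. The site had 6.09 and 2.41 scaled RPM in control and 13.5 and 10.3 in TGF-beta1 libraries, without overlap (4.25 ± 2.60 and 11.9 ± 2.31, n = 2). The log2 difference of 1.38 (SE 0.43) did not pass (limma adjusted p = 0.0520). edgeR on recovered reads, which called 7.74% of sites, called it higher. At this site the control libraries (11 and 7 reads) did not both reach the filter's depth, so it was tested through the TGF-beta1 libraries (44 and 36 reads), where it is high, and the call is no independent support for its direction. The annotation also lists miR-181 and miR-23 seeds adjacent to or near this crosslink. The window, printed because it changed call between the tools, holds a whole-seed match directly after the crosslink:

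BMPR2: gtgttttgtttgaatGTGCAATagtttata

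MAP1B, a microtubule-associated protein, had 1.66 and 4.13 scaled RPM in control and 6.46 and 11.4 in TGF-beta1 libraries, with a log2 difference of 1.38 (SE 0.49, limma adjusted p = 0.0959). SNN had 1.11 and 4.13 against 4.92 and 9.14 (log2 difference 1.24, adjusted p = 0.191). These and BMPR2 have the 3 largest positive differences among the tested sites. At none of these 3 did both control libraries reach the filter's depth, and they were picked for their differences, so that the TGF-beta1 values lie above the controls is a description only.

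The 3 largest decreases were in FAM129A, REV3L and BICC1. FAM129A, a stress-responsive protein also named NIBAN1, had 4.98 and 6.19 scaled RPM in control and 2.46 and 0.286 in TGF-beta1 libraries (log2 difference -1.64, SE 0.59, limma adjusted p = 0.103). REV3L, the catalytic subunit of DNA polymerase zeta, had 5.54 and 7.91 against 4.92 and 0.857, and BICC1, an RNA-binding protein whose loss causes cystic kidneys, 4.43 and 4.13 against 0.923 and 2.28. The lowest of these values is 1 read in TGF-beta1 replicate 2, and none of the 3 passed.

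**Figure D4:**
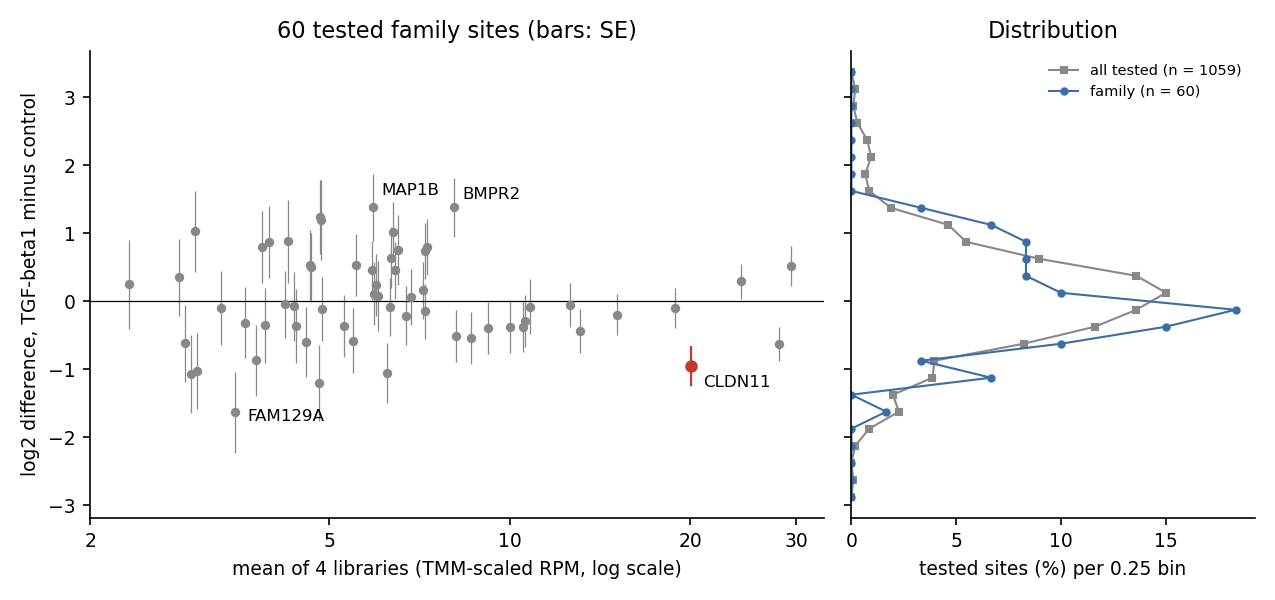
Left, log2 difference between TGF-beta1 and control (y axis, bars are SE) against mean scaled RPM (x axis, log scale) for the 60 tested family sites, with CLDN11 in red. Right, percent of tested sites per bin of log2 difference (x axis) for the family and for all 1059 tested sites; both have their bulk between -1 and 1.

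Summed over all sites with the same gene name, 188 genes with a family site could be tested, and 7 passed: ACTG1, AMIGO2, BMPR2 and FN1 rose and CLDN11, PEG10 and UGCG fell. Over all 1266 genes tested 39 passed, or 3.08% (1.58% higher, 1.5% lower). For most of the 7 the family site is a small part of the gene. It held 0.0806% of the reads at FN1, 0.237% at PEG10, 0.490% at UGCG, 0.623% at ACTG1 and 0.969% at AMIGO2, but 38.0% at BMPR2 and 67.0% at CLDN11. Among the 83 tested genes with over 25% of their reads at family sites, 1 rose, 1 fell and the median log2 difference was -0.07.

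Other fits called between 0 and 12 genes with a family site. The count was 3 without TMM scaling (2.29% of all genes), 6 by DESeq2 (2.21%), 7 by edgeR (3.79%) and with a pseudocount of 2 (3.32%), 8 with the replicate block (4.5%) and 9 with TMM computed before the filter (4.98%). It was 12 on coverage (4.78%), 9 from 3′ UTR sites alone (8.88%), 1 with no filter (0.0917%) and 0 without a variance trend (0.237%).

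Gene values are sums of crosslinked reads over sites of all seeds, not RNA amounts, and RNA amount was not compared. BMPR2 rose from 11.1 and 11.2 scaled RPM in control to 29.8 and 29.3 in TGF-beta1 libraries as a gene (log2 difference 1.33, SE 0.26, limma adjusted p = 0.0216). CLDN11 fell from 39.3 and 47.2 to 21 and 15.9 (log2 difference -1.19, SE 0.25, limma adjusted p = 0.0325). FN1, the matrix protein fibronectin, rose 3.43-fold, and UGCG, glucosylceramide synthase, fell to 51.6 ± 0.326 from 189.3 ± 22.9 scaled RPM (n = 2), 3.67-fold. ACTG1 shares sequence with ACTB and with pseudogenes, so its reads may be split among copies. Without TMM scaling, which moved the median of all genes to -0.45, BMPR2, FN1, ACTG1, AMIGO2 and CLDN11 did not pass. Leaving out either control library left 0 of these genes passing by limma (0% of all genes), and leaving out TGF-beta1 replicate 1 or 2 left 2 each time (0.869% and 1.34% of all genes).

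Of 35 published targets of the family, 21 had an Argonaute site of any seed, 9 could be tested as genes, and 1 rose and 0 fell by limma (3.08% of all genes passed); at an unadjusted p under 0.05 stood 1 higher and 0 lower, and edgeR called 1 (3.79% of all genes). The riser was SMAD7, the feedback inhibitor of TGF-beta receptors, which has no family site in the list. The median log2 difference was 0.14 over the 9 and 0.02 over all genes. 13 of the 35 had a family site, 17 sites in all: every one a whole-seed match, 15 of them in 3′ UTRs and 2 in coding sequence (ATP2A2 and ITGAV).

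BCL2L11 carried 2 of these 3′ UTR sites, 1439 nt apart. The stronger, at chr2:111168365-111168371, had 8.31 and 16.2 scaled RPM in control and 9.54 and 8.0 in TGF-beta1 libraries. The weaker, at chr2:111166926-111166932, went the other way with 0 and 1.38 against 3.69 and 6.28 scaled RPM, on 0, 4, 12 and 22 reads, and was too shallow to test. LATS2, a Hippo pathway kinase, had 6.09 and 4.47 against 8.62 and 6.57, and DNAJB9, a chaperone of the endoplasmic reticulum, 6.09 and 3.44 against 6.16 and 9.71. CPEB2, a regulator of poly(A) tails, had 0.554 and 6.19 against 4.92 and 5.43, its controls being far apart. With ATP2A2 these make 5 tested published-target sites, of which 0 passed by limma (7.18% of all sites), 0 had an unadjusted p under 0.05 (19.3%) and 0 were called by edgeR (7.74%). At 5 sites these counts are near those shares. Sites in EDEM1, HIPK3, TSC1, DUSP10, MAP2K4, BTG2, ITGAV and ADAM10 had 3 to 18 reads each.

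The TGF-beta and SMAD list held 26 genes, of which 14 could be tested: PMEPA1, INHBA, SMAD7 and BMPR2 rose and ITGB8 fell, where 1.58% of all genes rose and 1.5% fell. The median log2 difference was 0.25 over the 14 and 0.02 over all genes. With either control library left out, 0 of all genes passed by limma, so none of these 5 did. Family sites were present in BMPR2, TGIF1 and ITGAV only among the 26. TGIF1, a corepressor that binds SMADs, had 14.4 and 15.8 scaled RPM in control and 12.9 and 9.14 in TGF-beta1 libraries at chr18:3458250-3458256, without overlap (log2 difference -0.44, SE 0.32, limma adjusted p = 0.503). Its family site held 83.4% of its reads.

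Of 19 cell cycle and survival genes, 12 had a site of any seed and 6 could be tested; 0 passed by limma (3.08% of all genes) and 0 by edgeR (3.79%), and 1 was lower at an unadjusted p under 0.05 (13.8% of all genes, either way). At 6 genes these counts are near those shares. Family sites lay in E2F3, RBL2, BCL2L11 and BTG2, 7 in all, 6 of them in 3′ UTRs. The 4 genes checked as sources of the microRNAs were MIR17HG, MCM7, TMEM245 and MIR363, the last itself a microRNA gene of the family. MIR17HG and MCM7 had an Argonaute site, and neither MIR17HG nor MCM7 had a family site. The 2 summed to 8.30 and 5.62 scaled RPM in control and 9.93 and 8.54 in TGF-beta1 libraries.

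The family's share of all crosslinked reads was compared last. The share was 3.53% and 4.28% in control replicates and 3.58% and 3.69% in TGF-beta1 replicates. The means were 3.90% ± 0.533 and 3.63% ± 0.0734 (SD, n = 2), and the difference of -0.27 percentage points was smaller than the spread between the controls (exact two-sided permutation p = 1.0). Without control replicate 2 the difference was 0.106 points, in the other direction. let-7 held 7.16% and 6.37%, miR-17 4.42% and 4.41%, and miR-30-5p 3.88% and 4.19%.

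The 3′ UTR part of the family's reads was 75.1% and 74.0% in control and 70.7% and 71.7% in TGF-beta1 libraries. Both treated libraries lie below both controls, a difference of -3.30 percentage points (74.5% ± 0.783 and 71.2% ± 0.690, n = 2; exact two-sided permutation p = 0.333, the smallest that 2 against 2 allows). Over all sites the same share was 62.7% ± 5.29 and 58.1% ± 3.27, a difference of -4.63 points, and let-7's was 59.4% and 56.5%. For miR-30-5p the share was higher with TGF-beta1, 81.6% against 77.9%. Coding sites took 13.9% ± 0.345 of the family's reads in control and 15.1% ± 0.598 in TGF-beta1 libraries, and noncoding RNA sites 5.64% and 6.92%. The deeper libraries are the TGF-beta1 ones, and the part of depth in this difference was not tested.

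**Figure D5:**
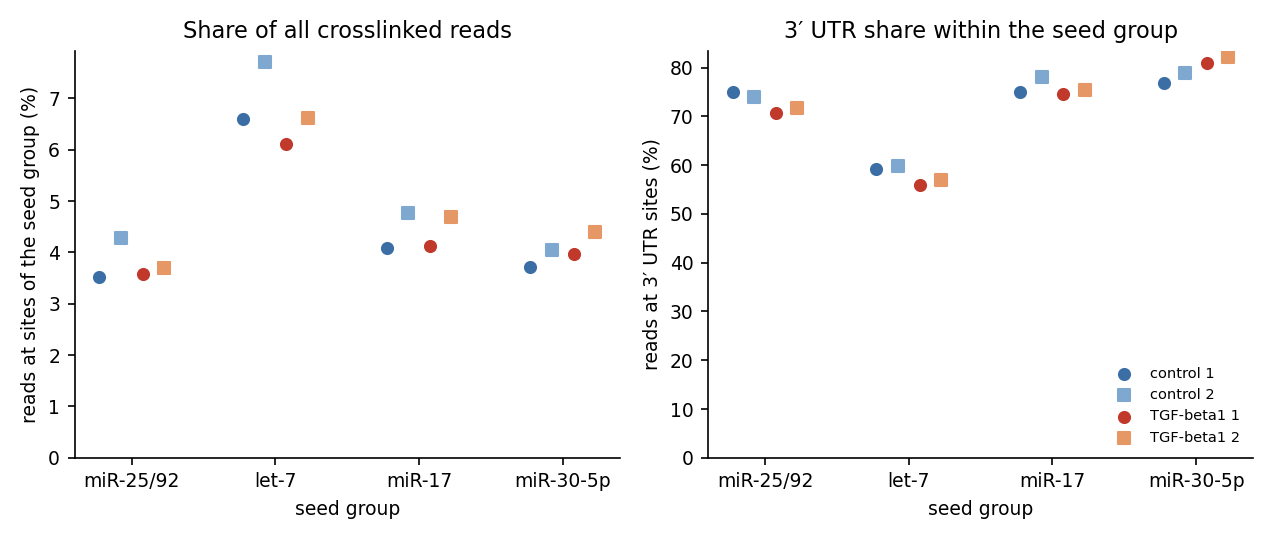
Left, percent of each library's crosslinked reads (y axis) at sites of the miR-25/92 family and of 3 other seed groups (x axis). Right, percent of each group's reads that lie at 3′ UTR sites; the family's TGF-beta1 libraries, 70.7% and 71.7%, sit below its controls, and those of miR-30-5p sit above.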

How the data were processed

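The authors mapped and annotated the PAR-CLIP reads on hg38. Tools named in the submitters' processing notes are bcl2fastq (2.20.0.422), STAR (2.7.1a) and bedtools, and the annotation is GENCODE 27 per the file headers. The program that called crosslinks is not given in the sources used here. The deposited RPM values, scaled by the authors to each library's reads, give crosslinked and covering reads for every site. The seed's abundance is a score per the file headers, microRNA RPM that the authors rounded. All values were whole multiples of 1 read's RPM (100% within 0.1 reads), from which counts and library depth follow. Coverage was 0 wherever a library had no crosslinked read, so crosslinked reads are reported. Another 4 columns of per-sample values, headed as RNA-seq, were not used. Reads carry no named molecular identifiers, so counts are not independent molecules.

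Sites and genes (sums over a gene name) kept by edgeR's filterByExpr (minimum count 10) were fitted over the whole table with limma 3.58.1 on the log2 of TMM-scaled RPM plus a pseudocount of 1. A variance trend was fitted, tests were two-sided and Benjamini-Hochberg adjusted p had to be under 0.05; log2 differences are on that scale, which understates change at low levels. TMM factors ranged from 0.614 to 1.509 over sites. edgeR 4.0.16 and DESeq2 1.42.0 (R 4.3.3) on recovered reads, other pseudocounts and filters, coverage and left-out libraries were alternatives. In windows the crosslinked base is masked; it was T at 296 of 296 positions seen in a neighbouring window. Whether replicate numbers mark pairs is not stated, and the reported fit did not pair the libraries. Deviations of same-numbered libraries correlated at 0.117 over sites and 0.131 over genes, which from 2 pairs only cannot decide it.

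The members, the gene lists, the variance trend and the named sites' rule were chosen with earlier results of these data known. Named sites are those that passed, the leading 15 and the leaders of each region, tested sites in published targets, genes with 3 or more sites, and the 3 largest differences each way. Some windows are not reported here.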

Additional observations from a re-analysis of the deposited data

How the results depend on the processing

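Over 38 named sites and genes and 539 alternative values, 442 kept direction and side of the threshold, 53 kept direction but no longer passed, 12 newly passed and 32 turned sign; the cause was not tested. Family sites that passed numbered 1 in the reported fit, 0 without TMM, with TMM computed before the filter (chosen after seeing the data), by DESeq2, without a trend, with a pseudocount of 0.5 and with no filter, 2 by edgeR and with a pseudocount of 2 (BMPR2 and CLDN11), 5 on coverage, and 0 to 6 with 1 library left out. With the replicate block 4 passed (MAP1B, BMPR2, CLDN11 and FAM129A), where 11% of all sites did. Whether the numbers pair the libraries is not known. Genes with a family site numbered 7, against 3 without TMM, 0 without a trend, 1 with no filter, 12 on coverage, 8 with the replicate block and 0 to 2 with 1 library left out. Of all 1059 tested sites 76 were called, against 28 without TMM, 42 with TMM before the filter and 42 by DESeq2. The count was 25 without a trend and 117 with the block. Coverage tested 3692 sites and called 203 (5.5%, against 7.18% in the reported fit). Of all 1266 tested genes 39 were called, against 63 with TMM before the filter, 3 without a trend and 57 with the block. Coverage tested 1756 genes and called 84 (4.78%, against 3.08% in the reported fit). The share difference was -0.647 to 0.106 and the 3′ UTR difference -3.85 to -2.74 percentage points with 1 library left out. Log2 differences turned sign without TMM at OIP5-AS1 (-0.12), SOX4 (-0.35), LATS2 (-0.12), ATP2A2 (-0.44), SDHB (-0.10) and KLHL11 (-0.0517); with TMM before the filter and with no filter at FXR1 (0.0097), MIA3 (0.0518) and SERTAD2 (0.0338); and on coverage at OIP5-AS1 (-0.12), DNAJB9 (-0.0368) and ATP2A2 (-0.19). With 1 library left out, where a lone library is assumed to vary like the other group, the ranges of sites that turned sign were OIP5-AS1 -0.026 to 1.07, FXR1 -0.31 to 0.12, MIA3 -0.21 to 0.10, SERTAD2 -0.60 to 0.45, LPP -0.87 to 0.28, BCL2L11 -0.82 to 0.0686, DUSP5 -0.85 to 0.11, NORAD -0.42 to 0.14, ATP2A2 -0.29 to 0.51, KLHL11 -0.0084 to 0.98, CPEB2 -0.22 to 1.90, PP7080 -0.86 to 0.18 and the leading intergenic site -0.46 to 0.28. Depth left 312 of 372 sites untested.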

Other observations

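The family's seed also appears at sites that the annotation gives to another seed. There are 64 such sites, 15 with the miR-25/92 match adjacent to or near the crosslink and 49 with it elsewhere in the window; 31 are in 3′ UTRs and the median is 10 reads over the 4 libraries. Their first-listed seeds were most often let-7 (7 sites), miR-221 and miR-222 (6) and miR-103a (5). Of the 8 tested, 1 fell and 0 rose by limma, where 7.18% of all tested sites passed. It lies in the 3′ UTR of ADAMTS3, a procollagen protease, is annotated to miR-103a-3p, and had 7.75 and 9.98 scaled RPM in control and 2.15 and 2.00 in TGF-beta1 libraries (log2 difference -1.67, limma adjusted p = 0.0329). The most abundant of the 64, a miR-221 and miR-222 site in the 3′ UTR of the cell cycle inhibitor CDKN1B, had 13.8 and 14.5 against 12.9 and 14.3 scaled RPM (log2 difference -0.05, limma adjusted p = 0.942).

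A family site was the only Argonaute site of its gene, or held all of its crosslinked reads, in 75 of the 361 site and gene pairs. It held over 50% in 136 and under 10% in 95, with a median of 33.3%.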
